A study of Mus musculus with 24 samples.

Results

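The 10 genes followed here, in 12 newborn mouse lungs, mark the thin alveolar type 1 cell or the transitional epithelial state that precedes it. The set was fixed as a list of symbols, which was chosen with earlier results of these data known. It holds 5 type 1 genes (Ager, Hopx, Rtkn2, Akap5 and Pdpn) and 5 transitional genes (Krt8, Krt19, Cldn4, Sfn and Itgb6). All 10 are among the 36109 genes listed for the lung, and all 10 are among the 16819 that passed the filter on low counts and were tested.

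The alveolar surface is covered mostly by type 1 cells, which are flat and carry gas exchange, while the cuboidal type 2 cells make surfactant and serve as their progenitors. When type 2 cells turn into type 1 cells, during growth or after injury, they pass through an intermediate state marked by simple epithelial keratins, tight junction claudin 4, stress response genes and the integrin that activates latent TGF-beta. High oxygen is a long-used way to injure newborn lungs, in which alveoli are still forming.

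The lungs came from 4 groups of 3 mice each: wild type mice in room air (WT-RA) or hyperoxia (WT-O2), and GSDMD-KO mice in room air (KO-RA) or hyperoxia (KO-O2). The mice were C57/B6 littermates from heterozygote matings, and the knockout allele is a CRISPR/Cas9-made 38 bp deletion in exon 5 of Gsdmd that is carried by every cell, so the knockout is not limited to the epithelium. Pups breathed 21% or 85% O2 from postnatal day 1 to postnatal day 14, and RNA was taken from the lungs on postnatal day 15. The comparisons ask how hyperoxia shifts these genes in each genotype and whether GSDMD deficiency alters that shift. The measured RNA is that of the whole lung, in which fewer cells of a type and less RNA per cell cannot be told apart.

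The estimated counts assigned to genes summed to between 28763661 and 29604254 per lung. Levels are given as CPM, the counts of a gene relative to the library's total scaled by the trimmed mean of M values (TMM), and a gene is said to have risen or fallen at an adjusted p under 0.1 in edgeR's quasi-likelihood test over all tested genes with Benjamini-Hochberg adjustment. Gsdmd itself was at 40.6 to 42.3 CPM in WT-RA, 32.1 to 36.4 CPM in WT-O2, 22.6 to 24.8 CPM in KO-RA and 11.7 to 16.3 CPM in KO-O2 lungs, lower in every GSDMD-KO lung than in any WT lung of the same exposure. Y-linked expression was found in none of the WT-RA lungs, 1 WT-O2 lung, 2 KO-RA lungs and all 3 KO-O2 lungs, which means that sex is unevenly spread over the groups.

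In room air all 10 genes were detected in every lung, and Ager led the set. Per kilobase of exon, Ager reached 1205 ± 42.4 CPM per kb (SD, n = 3) in WT-RA lungs, followed by Hopx at 179 CPM per kb and Pdpn at 66.7 CPM per kb. Krt19 (57.0) and Krt8 (51.4) came next on the same scale, then Akap5 (35.2), Rtkn2 (28.97), Sfn (13.4), Itgb6 (7.58) and Cldn4 (2.84). The ranges of neighbouring genes overlapped for Pdpn and Krt19, for Krt19 and Krt8, and for Akap5 and Rtkn2, and did not overlap for the other neighbours. Of the transitional genes, Krt8 and Krt19 were therefore already well above the other 3 without hyperoxia.

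Under hyperoxia all 5 transitional genes rose in both genotypes while the type 1 genes split, although Krt8 and Krt19 did not rise when the libraries were scaled by 10 epithelial genes, as given further on. Their median log2 fold change was 1.06 with WT mice and 0.91 with GSDMD-KO mice, against medians over all tested genes of -0.0069 and -0.013. Of the 5 type 1 genes, Akap5 rose and Ager fell in both genotypes, Hopx fell in WT lungs, and Rtkn2 and Pdpn did not pass the test in either. In all, 6 of the 10 genes rose and 2 fell in WT lungs, where 24.5% of all tested genes rose and 24.7% fell. In GSDMD-KO lungs 6 rose and 1 fell, where 23.3% of all tested genes rose and 23.4% fell. The RA and hyperoxia lungs did not overlap for 8 of the 10 genes with WT mice and 7 with GSDMD-KO mice, which held for 49.8% and 52.4% of all tested genes.

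**Figure D1:**
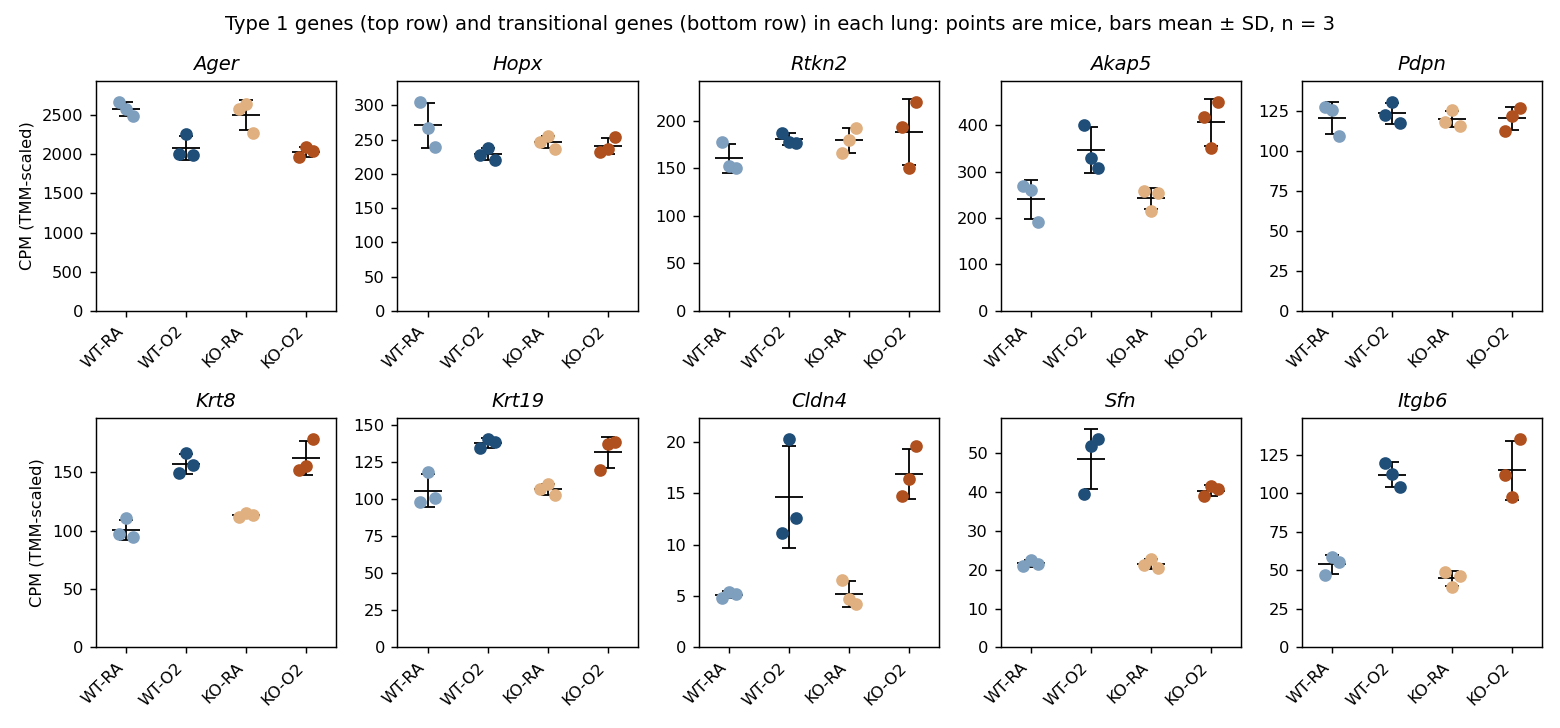
TMM-scaled CPM (vertical axes, linear and starting at 0) of each gene in each lung, by group on the horizontal axes. Points are mice, and the bars give the mean ± SD of 3 lungs. All 5 transitional genes in the bottom row lie higher in every hyperoxia lung than in any RA lung of the same genotype, and Akap5 is the one type 1 gene of which this holds on this scale.

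Ager encodes RAGE, a receptor of the immunoglobulin family that is abundant on the basal side of type 1 cells. The gene (ENSMUSG00000015452, chr17:34597862-34600936, plus strand, GRCm38) was at 2670.4, 2579.6 and 2489 CPM in WT-RA lungs and at 2006, 2264 and 1991 CPM in WT-O2 lungs. In GSDMD-KO lungs it was at 2576, 2649 and 2279 CPM in RA and at 1969.6, 2098 and 2039.9 CPM in hyperoxia. Every hyperoxia lung thus lay below every RA lung of its genotype. Ager fell by 0.31 on the log2 scale in WT lungs (SE 0.0896, adjusted p = 0.0134) and by 0.30 in GSDMD-KO lungs (SE 0.0896, adjusted p = 0.0166). Seen as a fold, 0.809 of the WT-RA level remained in WT-O2 lungs.

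Hopx encodes a small homeodomain protein without DNA binding of its own and is a marker of type 1 cells. It (ENSMUSG00000059325, chr5:77086988-77115121, minus strand) was at 305, 267 and 239.6 CPM in WT-RA lungs and at 228, 238 and 220.0 CPM in WT-O2 lungs. The lowest WT-RA and the highest WT-O2 lung differed by little, but the groups did not overlap, and Hopx fell by 0.24 (SE 0.0884, adjusted p = 0.0392). That call was lost without WT-RA replicate 1, the lung with the highest level (log2 fold change -0.15, adjusted p = 0.205), and without WT-O2 replicate 3 (-0.21, adjusted p = 0.129). Hopx is also made by heart muscle, whose 6 listed markers summed to 99.1 to 279 CPM in WT-RA and 139.6 to 158 CPM in WT-O2 lungs, with WT-RA replicates 1 and 2 high, and their part in the result was not tested. Of the heart list, 0 rose and 2 fell in WT lungs and 0 of 6 passed in GSDMD-KO lungs. In GSDMD-KO lungs Hopx was at 247, 255 and 237 CPM in RA and 231, 236 and 253 CPM in hyperoxia. These ranges overlapped, with a difference of -0.036 and a 95% interval of -0.22 to 0.15.

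Rtkn2, a type 1 marker, did not pass the test in either genotype. It (ENSMUSG00000037846, chr10:67979570-68059740, plus strand) ranged over 151 to 178 CPM in WT-RA, 176 to 188 CPM in WT-O2, 166 to 192 CPM in KO-RA and 151 to 220.1 CPM in KO-O2 lungs. The differences with hyperoxia were 0.17 in WT lungs (95% interval -0.080 to 0.42) and 0.068 in GSDMD-KO lungs (95% interval -0.18 to 0.32), and all groups overlapped. Pdpn, or podoplanin, is a membrane mucin of type 1 cells that lymphatic endothelium and mesothelium also carry. It (ENSMUSG00000028583, chr4:143267431-143299564, minus strand) varied least between conditions, at 109.7 to 128 CPM in WT-RA, 118 to 131 CPM in WT-O2, 116 to 126 CPM in KO-RA and 113 to 127 CPM in KO-O2 lungs. Its differences were 0.031 in WT lungs (95% interval -0.14 to 0.20) and 0.0070 in GSDMD-KO lungs (95% interval -0.17 to 0.18), intervals that hold no change as large as that of Ager. The 6 markers listed for lymphatic endothelium summed to 325 to 489 CPM in WT-RA and 662 to 711 CPM in WT-O2 lungs, and to 431 to 489.8 CPM in KO-RA and 582 to 742 CPM in KO-O2 lungs. Among them 1 rose (Lyve1, log2 fold changes 1.52 and 1.20) in each genotype, and 1 fell in WT and 3 in GSDMD-KO lungs.

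Akap5 encodes an anchoring protein that holds protein kinase A and calcineurin at membranes. It went the other way from Ager. The gene (ENSMUSG00000021057, chr12:76324891-76334153, plus strand) was at 268, 259.7 and 192 CPM in WT-RA lungs and at 401, 329 and 307 CPM in WT-O2 lungs. In GSDMD-KO lungs it was at 259, 216 and 253 CPM in RA and 417, 351 and 450.2 CPM in hyperoxia. The hyperoxia and RA ranges were apart in both genotypes. Akap5 rose by 0.53 in WT lungs (SE 0.140, adjusted p = 0.00795) and by 0.74 in GSDMD-KO lungs (SE 0.140, adjusted p = 0.000839).

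Krt8 encodes keratin 8, the type II keratin of simple epithelia and the gene after which the transitional state is often named. It (ENSMUSG00000049382, chr15:101996698-102004482, minus strand) was at 97.2, 110.4 and 94.4 CPM in WT-RA lungs and at 149.6, 166 and 156 CPM in WT-O2 lungs. In GSDMD-KO lungs it was at 111, 115 and 114 CPM in RA and 152, 155 and 179 CPM in hyperoxia. The hyperoxia lungs lay above the RA lungs in both genotypes, and Krt8 rose by 0.64 in WT lungs (SE 0.0847, adjusted p = 3.21e-05) and by 0.52 in GSDMD-KO lungs (SE 0.0845, adjusted p = 0.000246). Set against Ager in the same lung, Krt8 CPM was 3.64% to 4.28% of Ager CPM in WT-RA lungs and 7.35% to 7.84% in WT-O2 lungs. In GSDMD-KO lungs this share went from 4.32% to 4.99% in RA to 7.41% to 8.76% in hyperoxia, so the share was higher in every hyperoxia lung than in any RA lung, and a ratio within a lung does not depend on how the libraries are scaled. The ratio does not show which of its genes moved. When the libraries were scaled by epithelial genes, Krt8 was at 0.17 and 0.020 and Ager at -0.79 in both genotypes.

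Keratin 8 pairs with the type I keratin 18. Krt18 also rose, by 0.64 in WT lungs (adjusted p = 0.000221) and 0.74 in GSDMD-KO lungs (adjusted p = 7.42e-05). The ratio of Krt8 to Krt18 CPM stayed between 1.44 and 1.79 over all 12 lungs. Krt19, which encodes the smallest type I keratin, rose less. It (ENSMUSG00000020911, chr11:100140810-100148665, minus strand) was at 98.1, 119 and 101 CPM in WT-RA lungs and at 135, 141 and 139 CPM in WT-O2 lungs. In GSDMD-KO lungs it was at 107, 111 and 103 CPM in RA and 119.9, 137 and 139 CPM in hyperoxia. The RA and hyperoxia ranges were apart in both genotypes. Krt19 rose by 0.38 in WT lungs (SE 0.0855, adjusted p = 0.00236) and by 0.305 in GSDMD-KO lungs (SE 0.0855, adjusted p = 0.0111).

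Cldn4, Sfn and Itgb6 were the 3 genes of the set that at least doubled in WT lungs, where 5.04% of all tested genes were called at least 2-fold higher. Cldn4 and Itgb6 did so in GSDMD-KO lungs as well, where 4.57% of all tested genes were. The 250 bases before the transcription start of Cldn4 and Sfn are shown as the genes with the largest rise in WT lungs, and those of Ager as the most abundant gene that fell. They are from RefSeq on GRCm38.p6, 5′ to 3′ on the strand of the gene, at chr5:134946935-134947184 (minus strand), chr4:133602169-133602418 (minus strand) and chr17:34597600-34597849 (plus strand), with any copy of TGANTCA, the AP-1 motif, in capitals.
Cldn4: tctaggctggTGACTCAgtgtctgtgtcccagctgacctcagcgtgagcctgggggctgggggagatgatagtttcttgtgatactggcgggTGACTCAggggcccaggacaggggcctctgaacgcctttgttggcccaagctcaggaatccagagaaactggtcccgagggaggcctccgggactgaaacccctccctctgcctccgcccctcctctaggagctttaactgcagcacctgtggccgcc
Sfn: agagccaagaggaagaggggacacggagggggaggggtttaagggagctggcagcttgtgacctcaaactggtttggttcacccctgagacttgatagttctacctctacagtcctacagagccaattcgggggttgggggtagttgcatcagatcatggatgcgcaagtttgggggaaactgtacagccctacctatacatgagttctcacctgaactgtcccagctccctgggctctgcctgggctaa
Ager: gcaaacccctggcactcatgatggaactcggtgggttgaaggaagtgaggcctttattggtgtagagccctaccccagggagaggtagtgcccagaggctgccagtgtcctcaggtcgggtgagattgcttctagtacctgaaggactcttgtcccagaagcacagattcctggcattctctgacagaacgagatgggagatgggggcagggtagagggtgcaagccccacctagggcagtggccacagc

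Of the 10 upstream windows held for 8 of the 10 genes (none for Rtkn2 and Krt19), the Cldn4 window was the one with TGANTCA, which it holds at 2 places that start 240 and 158 bases before the transcription start. Over 32851 RefSeq windows of the same length, 6.75% hold TGANTCA at least once and 0.338% hold it 2 or more times. GGAATG, the motif of the TEAD factors, was in 0 of the 10 windows against 12.6% of all windows, with both strands searched for each motif. A match is a run of letters and not a measured binding site.

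Cldn4 encodes claudin 4, a tight junction protein that is scarce in resting alveoli. It (ENSMUSG00000047501, chr5:134945119-134946934, minus strand) was at 4.82, 5.45 and 5.19 CPM in WT-RA lungs and at 11.1, 20.3 and 12.6 CPM in WT-O2 lungs. In GSDMD-KO lungs it was at 6.59, 4.72 and 4.27 CPM in RA and 14.8, 16.4 and 19.6 CPM in hyperoxia. It was the least abundant of the set, with 126 to 591 counts per lung, and its WT-O2 lungs were the most uneven, with a coefficient of variation of 33.7%. Cldn4 rose by 1.51 in WT lungs (SE 0.220, adjusted p = 0.000102) and by 1.70 in GSDMD-KO lungs (SE 0.220, adjusted p = 4.01e-05), or 2.85-fold and 3.26-fold. As a share of Cldn18, the main claudin of type 1 cells, its CPM went from 0.524% to 0.635% in WT-RA to 1.05% to 1.75% in WT-O2 lungs.

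Sfn encodes 14-3-3 sigma, a p53 target that holds cells before mitosis. It (ENSMUSG00000047281, chr4:133600556-133602168, minus strand) was at 20.9, 22.6 and 21.6 CPM in WT-RA lungs and at 39.6, 52.0 and 53.8 CPM in WT-O2 lungs. The GSDMD-KO values were 21.3, 22.9 and 20.4 CPM in RA and 38.9, 41.6 and 40.7 CPM in hyperoxia. The hyperoxia lungs were far above the RA lungs, and WT-O2 replicate 1 lay within the KO-O2 range while the other WT-O2 lungs lay above it. Sfn rose by 1.16 in WT lungs (SE 0.105, adjusted p = 1.01e-06) and by 0.91 in GSDMD-KO lungs (SE 0.105, adjusted p = 1.13e-05).

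Itgb6 encodes the beta 6 chain of the epithelial integrin that frees TGF-beta from its latent complex. It (ENSMUSG00000026971, chr2:60598292-60722643, minus strand) was at 47.3, 58.9 and 55.5 CPM in WT-RA lungs and at 119.8, 113 and 103.96 CPM in WT-O2 lungs. The GSDMD-KO values were 48.7, 39.5 and 46.1 CPM in RA and 112, 97.4 and 136 CPM in hyperoxia. All hyperoxia lungs lay above all RA lungs. Itgb6 rose by 1.06 in WT lungs (SE 0.122, adjusted p = 1.02e-05) and by 1.36 in GSDMD-KO lungs (SE 0.123, adjusted p = 1.17e-06). Without WT-RA replicate 1, the lowest lung, the rise in WT was 0.97 and so just short of 2-fold.

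The lung holds many cell types, so the same comparison was also read against genes of the epithelium. Such a scale does not remove the RNA of other cells, and whether it tracks the amount of epithelium was not tested. Genes shared by most epithelial cells (Epcam, Cdh1, Esrp1 and 7 others, Krt18 and Cldn7 among them) were themselves higher after hyperoxia. Of these, 9 of 10 rose in WT lungs and 8 of 10 in GSDMD-KO lungs, with medians of 0.53 and 0.55. Here and for every other list on the TMM scale, the shares over all tested genes are those given above. They were 24.5% rising and 24.7% falling in WT lungs, and 23.3% and 23.4% in GSDMD-KO lungs. Epcam, a cell adhesion molecule, rose by 0.57 and 0.66, and Cdh1, or E-cadherin, by 0.78 and 0.90. When the libraries were scaled by these 10 genes, the median over all tested genes moved to -0.49 in WT and -0.51 in GSDMD-KO lungs. Against that shift, 6.53% of all tested genes rose and 64.5% fell in WT lungs, and 5.69% rose and 66.2% fell in GSDMD-KO lungs.

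On the pan-epithelial scale, 3 transitional genes rose in each genotype, namely Cldn4 (1.03 with WT and 1.20 with GSDMD-KO mice), Sfn (0.68 and 0.42) and Itgb6 (0.58 and 0.86). Krt8 did not pass on this scale, at 0.17 in WT lungs (95% interval -0.030 to 0.36) and 0.020 in GSDMD-KO lungs (95% interval -0.18 to 0.22). With Krt18 and Elf3 left out of the scaling genes, a choice made after the data were seen, Krt8 passed in WT lungs (0.18, adjusted p = 0.0935) but not in GSDMD-KO lungs (0.016). Krt19 turned from higher to lower, at -0.093 in WT lungs (adjusted p = 0.393) and -0.19 with GSDMD-KO mice (adjusted p = 0.0795). In the latter it was the 1 transitional gene that fell on this scale. On this scale, where 64.5% and 66.2% of all tested genes fell, 4 of 5 type 1 genes fell in each genotype. They were Ager (-0.79 in both), Hopx (-0.72 and -0.53), Pdpn (-0.45 and -0.49) and Rtkn2 (-0.31 and -0.43). Akap5 did not pass on this scale (0.056 and 0.25). Relative to the medians over all genes on this scale (-0.49 in WT and -0.51 in GSDMD-KO lungs), every transitional gene was higher. Akap5, Rtkn2 and Pdpn were higher as well, while Ager and Hopx were lower. A change of scale shifts genes and median about alike, so the position against the median is no second check.

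**Figure D2:**
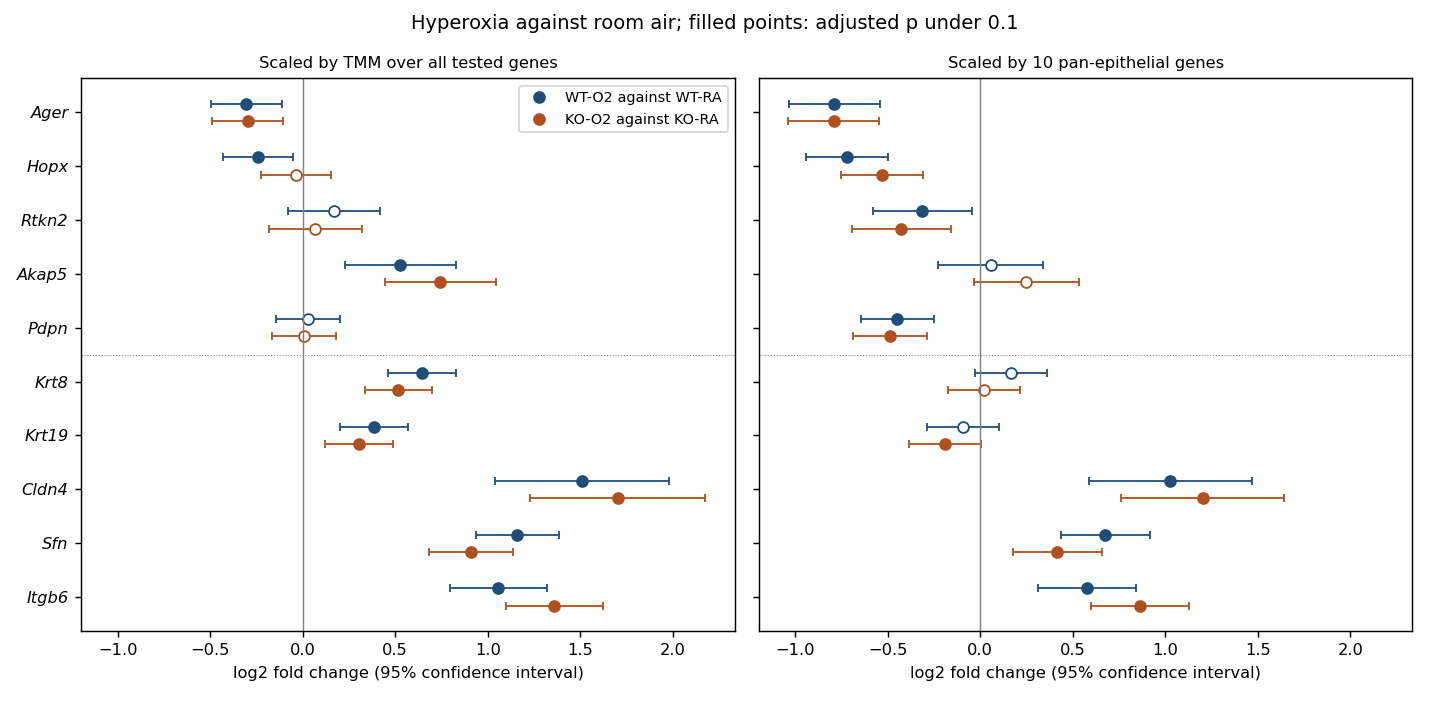
Log2 fold change with hyperoxia (horizontal axes, points with 95% confidence intervals) of each gene in WT (blue) and GSDMD-KO lungs (orange), scaled by TMM on the left and by 10 pan-epithelial genes on the right. Filled points passed at an adjusted p under 0.1. The right panel is shifted towards lower values, and there Cldn4, Sfn and Itgb6 remain above 0, Krt8 is not apart from 0, and Krt19 turns negative.

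Cells other than the alveolar epithelium also carry some of these genes. Mesothelium, the lining of the lung surface, makes keratins 8 and 19 and podoplanin, and its 6 listed markers summed to 106 to 211 CPM in WT-RA, 170.1 to 391 CPM in WT-O2, 151 to 212 CPM in KO-RA and 262 to 507 CPM in KO-O2 lungs. Of these, 3 rose in WT lungs (Wt1, Msln and Muc16, with log2 fold changes of 1.64, 1.87 and 1.98) and Upk1b fell by 0.77, and in GSDMD-KO lungs likewise 3 rose and 1 fell. With the mean of the mesothelial list as a term in the fit, an alternative added after the data were seen, Krt8 was still higher by 0.58 in WT (adjusted p = 0.00211) and 0.46 in GSDMD-KO lungs (adjusted p = 0.00462), while Krt19 in GSDMD-KO lungs was at 0.24 and no longer passed (adjusted p = 0.103). Airway basal cells, another source of keratins, had defining markers near 0, as Krt5 was at most 0.273 CPM and Krt14 at most 0.425 CPM in any lung, and the summed list of 6 was at 2.06 to 5.18 CPM. Of the 3 basal markers tested, 0 passed in WT lungs and 1 (Krt15) fell in GSDMD-KO lungs. How much of the Krt8 and Krt19 RNA came from mesothelium or basal cells was not tested. Of 6 oesophageal and squamous markers 2 were tested, and Sprr1a rose in both genotypes (2.62 and 3.47) in lists that summed to no more than 12.6 CPM.

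Blood cells moved with the WT comparison. The 8 listed erythroid genes summed to 15753 to 18156 CPM in WT-RA and 2921 to 4153 CPM in WT-O2 lungs, and all 8 fell. In GSDMD-KO lungs the ranges were 12680 to 26857 CPM in RA and 5971 to 29931 CPM in hyperoxia, and 2 of 8 fell. With the erythroid mean as a term 4 of the 10 genes passed in WT lungs in place of 8 (Krt8, Cldn4, Sfn and Itgb6), and 7 still passed in GSDMD-KO lungs. Of the 4 calls lost, Ager was at -0.27 with the term against -0.31 without it, Hopx at -0.37 against -0.24, Akap5 at 0.24 against 0.53 and Krt19 at 0.25 against 0.38, all in the same direction. The erythroid sums of the WT groups do not overlap, so blood and exposure cannot be told apart in this fit.

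Other genes known from type 1 cells were also divided. Of 18 such genes, 9 rose and 5 fell in WT lungs (median 0.19), and 9 rose and 4 fell in GSDMD-KO lungs (median 0.37). All tested genes gave 24.5% rising and 24.7% falling in WT lungs, and 23.3% and 23.4% in GSDMD-KO lungs. Scnn1g, a subunit of the epithelial sodium channel, rose by 0.85 and 0.68, and Col4a4, a basement membrane collagen chain that type 1 cells make, by 0.71 and 0.90. Cav1, the caveola protein that type 1 cells share with capillary endothelium, fell by 1.34 and 1.11, and Emp2, a tetraspan membrane protein, by 0.54 and 0.28. Capillary endothelial genes fell too, 7 of 8 in WT (median -1.54) and 6 of 8 in GSDMD-KO lungs (median -1.34), led by Tek, the angiopoietin receptor, at -2.47 and -2.14. The part of endothelium in the level of Cav1 was not tested. On the pan-epithelial scale 3 of the 18 type 1 genes rose and 9 fell in WT lungs, and 2 rose and 8 fell in GSDMD-KO lungs. Over all tested genes 64.5% and 66.2% fell on that scale.

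Further genes of the transitional state were mostly higher in hyperoxia. Of 18, 14 rose and 2 fell in WT lungs (median 1.11), and 14 rose and 1 fell in GSDMD-KO lungs (median 1.15). Over all tested genes 24.5% rose and 24.7% fell in WT lungs, and 23.3% and 23.4% in GSDMD-KO lungs. Fosl1, an AP-1 subunit, went from at most 0.168 CPM in WT-RA to between 10.5 and 21.8 CPM in WT-O2 lungs. Cdkn1a, the p53-induced cell cycle inhibitor p21, rose by 3.71 in WT and 3.49 in GSDMD-KO lungs, from 57.0 to 91.3 CPM in WT-RA to 787 to 963 CPM in WT-O2 lungs. Tnfrsf12a, the TWEAK receptor, rose by 2.34 and 2.11, and Lamb3, a laminin-332 chain, by 1.12 and 1.16. On the pan-epithelial scale 10 of the 18, which include the scaling gene Krt18, rose and 4 fell in WT lungs, and 13 rose and 4 fell in GSDMD-KO lungs. There 6.53% of all tested genes rose and 64.5% fell in WT lungs, and 5.69% and 66.2% in GSDMD-KO lungs. Several of these genes are made by other cells as well, and the listed macrophage markers also moved, 5 rising and 2 falling of 7 in WT lungs and 5 rising and 1 falling in GSDMD-KO lungs, led by Spp1 (2.90 and 2.99).

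**Figure D3:**
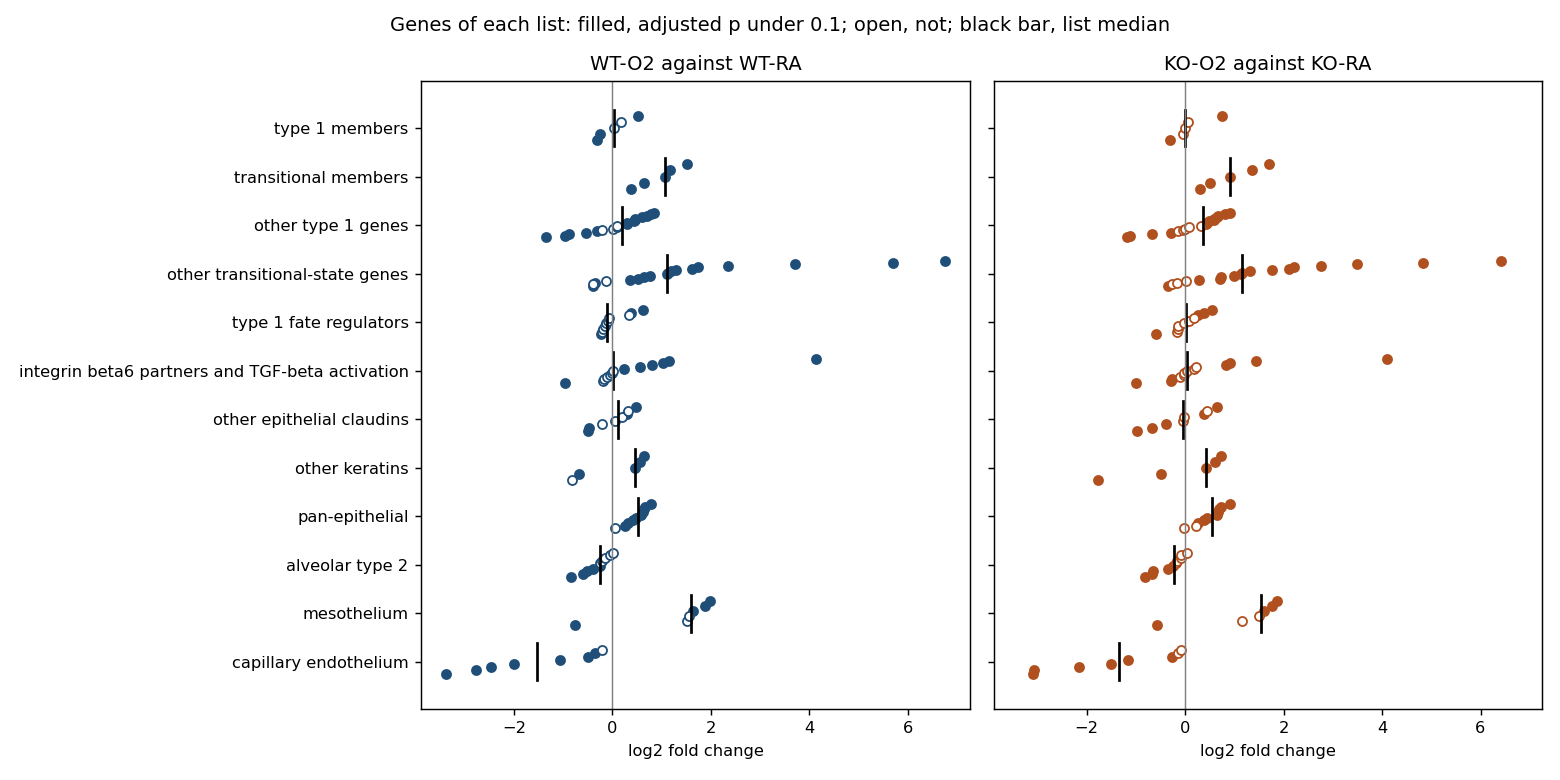
Log2 fold change with hyperoxia (horizontal axes, TMM scale) of the genes of 12 lists in WT (left) and GSDMD-KO lungs (right). Each point is a gene, filled at an adjusted p under 0.1, and black bars mark list medians. The further transitional genes reach a median of 1.11 in WT lungs, while the type 1 genes lie on both sides of 0. When scaled by the pan-epithelial genes, the medians of the type 1, keratin and claudin lists are negative, as are those over all tested genes (-0.49 and -0.51).

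Around Itgb6, 6 of 13 integrin and TGF-beta genes rose and 1 fell in WT lungs, and 4 rose and 3 fell in GSDMD-KO lungs. Over all tested genes 24.5% rose and 24.7% fell in WT lungs, and 23.3% and 23.4% in GSDMD-KO lungs. The medians of the 13 were near 0, at 0.0026 in WT and 0.048 in GSDMD-KO lungs. Itgav, the alpha chain that pairs with beta 6, rose by 1.03 and 0.91. Tgfb2, a TGF-beta ligand, rose by 1.15 and 1.43, and Tgfbr2, its type II receptor, by 0.81 and 0.83. These 3 rose on the pan-epithelial scale as well, where 4 of the 13 rose and 7 fell in each genotype (medians -0.50 and -0.45). Over all tested genes 6.53% rose and 64.5% fell there in WT lungs (median -0.49). In GSDMD-KO lungs 5.69% rose and 66.2% fell (median -0.51). The ligand Tgfb1, named after its values were seen, was at -0.012 and -0.025 and did not pass. On the pan-epithelial scale it fell by 0.51 (adjusted p = 0.00331) and 0.52 (adjusted p = 0.0029), about as far as the median over all tested genes. The ligand Tgfb3, also named after its values were seen, averaged 96.6 CPM in WT-RA and 96.8 CPM in WT-O2 lungs. In GSDMD-KO lungs it averaged 95.7 CPM in RA and 98.9 CPM in hyperoxia. Whether the integrin acted on any of these ligands was not tested.

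Around Ager, 2 of 7 genes for RAGE ligands and signalling rose and 1 fell in WT lungs, and 2 rose and 2 fell in GSDMD-KO lungs. Over all tested genes 24.5% rose and 24.7% fell in WT lungs, and 23.3% and 23.4% in GSDMD-KO lungs. On the pan-epithelial scale 1 of the 7 rose and 4 fell in WT lungs, and 2 rose and 4 fell in GSDMD-KO lungs (medians -0.59 and -0.66). There 64.5% and 66.2% of all tested genes fell (medians -0.49 and -0.51). S100a6 rose by 0.90 and 0.99, and Hmgb1, a nuclear protein that binds RAGE once outside the cell, fell by 0.43 and 0.22. Of the other keratins 5 of 11 were tested, of which 3 rose (Krt18, Krt7 and Krt80) and 1 fell (Krt23) in WT lungs and 3 rose and 2 fell in GSDMD-KO lungs. Krt7 and Krt80 did not pass on the pan-epithelial scale in either genotype, and Krt7 was slightly negative there (-0.022 and -0.080). Of 8 other claudins, 2 rose (Cldn7 and Cldn18) and 2 fell (Cldn1 and Cldn23) in WT lungs, and 2 rose and 3 fell in GSDMD-KO lungs. The 2 that rose did not pass on the pan-epithelial scale, where Cldn7 (-0.0092 and -0.11) and, in WT lungs, Cldn18 (-0.20) were negative. Cldn7 and Krt18 are themselves scaling genes, so their values on that scale are partly set by the scaling.

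Of 10 transcription factors and Hippo pathway genes that regulate type 1 fate, 2 rose and 1 fell in WT lungs and 3 rose and 1 fell in GSDMD-KO lungs, where all tested genes gave 24.5% and 24.7% in WT and 23.3% and 23.4% in GSDMD-KO lungs. Tead1, the DNA-binding partner of YAP and TAZ, rose by 0.62 and 0.54, and Wwtr1, which encodes TAZ, by 0.37 and 0.38, though neither passed on the pan-epithelial scale, where Wwtr1 was negative (-0.11 in both) and 0 of the 10 rose and 7 fell in each genotype, beside 64.5% and 66.2% of all tested genes that fell. Nkx2-1, the lung epithelial lineage factor and named after its values were seen, was at -0.15 in WT and 0.077 in GSDMD-KO lungs and did not pass.

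Type 2 cell genes, by contrast, did not rise. Of 10, 5 fell in each genotype and 0 rose, with medians of -0.25 and -0.22. All tested genes gave 24.5% rising and 24.7% falling in WT lungs, and 23.3% and 23.4% in GSDMD-KO lungs. On the pan-epithelial scale all 10 fell in each genotype (medians -0.73 and -0.71), where 64.5% and 66.2% of all tested genes fell. Sftpc, which encodes surfactant protein C, fell by 0.53 in WT (adjusted p = 0.00182) and by 0.67 with GSDMD-KO mice (adjusted p = 0.000304). The summed list went from 20892 to 23598 CPM in WT-RA to 14946 to 18003 CPM in WT-O2 lungs. Airway club and ciliated genes were mixed, with 2 rising and 2 falling of 7 in WT lungs and 1 rising and 4 falling in GSDMD-KO lungs. Thymus genes, of which 4 of 6 were tested, fell for 2 in WT and 1 in GSDMD-KO lungs, from sums of no more than 12.7 CPM.

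No difference between GSDMD-KO and WT lungs was detected for any of the 10 genes. In hyperoxia (KO-O2 against WT-O2), 0 of 10 passed in edgeR's quasi-likelihood test, where 0.0416% of all tested genes did, and 0 of 10 passed with DESeq2 or limma voom. At an unadjusted p under 0.05, 1 of 10 passed, where 6.21% of all tested genes did. All 10 genes overlapped between the groups, where 12.2% of all tested genes did not. The one was Sfn, lower in KO-O2 by a log2 difference of -0.26 (95% interval -0.48 to -0.042, unadjusted p = 0.0228, adjusted p = 0.752). Akap5 was at 0.23 (95% interval -0.068 to 0.53). The intervals of all 10 lay within -0.48 and 0.65, the latter bound for Cldn4.

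In room air (KO-RA against WT-RA), again 0 of 10 passed, by edgeR, DESeq2 or limma voom, where 0.488% of all tested genes passed in edgeR. At an unadjusted p under 0.05 1 passed, Itgb6, where 10.5% of all tested genes did. Its log2 difference was -0.27 (95% interval -0.53 to -0.0064, unadjusted p = 0.0453, adjusted p = 0.461). Krt8 was the 1 gene higher in KO-RA without overlap, where 7.26% of all tested genes were. Its difference was 0.17 (95% interval -0.010 to 0.35, adjusted p = 0.510). In the other direction, 0 of 10 were lower without overlap, for which no share of all genes is given here.

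The test of the difference itself, the interaction of genotype and hyperoxia, passed for 0 of 10 genes in edgeR, DESeq2 and limma voom, where 0.00595% of all tested genes passed in edgeR, and 0 of 10 reached an unadjusted p under 0.05 in edgeR, where 6.72% did. The smallest unadjusted p-values were those of Itgb6 at 0.30 (95% interval -0.062 to 0.67, adjusted p = 0.810), Sfn at -0.25 (95% interval -0.57 to 0.065, adjusted p = 0.823) and Hopx at 0.21 (95% interval -0.060 to 0.47, adjusted p = 0.836). That Hopx fell in WT and did not pass in GSDMD-KO lungs is therefore not shown to be a difference between the genotypes. The 4 group comparisons and the interaction share lungs with each other and are not independent, and with sex as a term (the presence of Y-linked expression) still 0 of 10 passed in any of the 3. Within each exposure, more GSDMD-KO than WT lungs had Y-linked expression. The term is therefore partly mixed with genotype there and is a weak check on the comparisons of genotype.

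**Figure D4:**
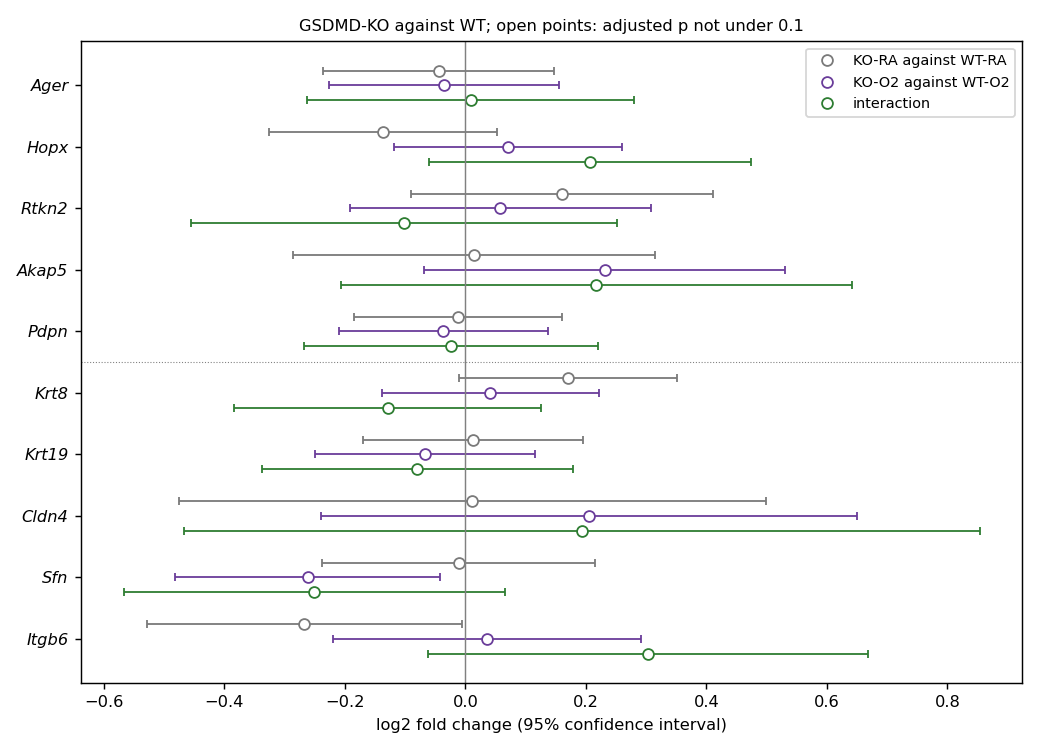
Log2 difference (horizontal axis, points with 95% confidence intervals, TMM scale) between GSDMD-KO and WT lungs in room air (grey) and in hyperoxia (purple), and the interaction of genotype and hyperoxia (green). Open points did not reach an adjusted p under 0.1 for any gene. The interval of Sfn in hyperoxia and that of Itgb6 in room air leave out 0 before adjustment, and Cldn4 has the widest intervals.

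The genes whose pattern over the 12 lungs lay nearest to each of the 10 were found by the root mean square difference of log2 CPM after centring each gene on its mean, among genes averaging 5 CPM or more. Krt8 lay nearest to Lsr (0.071), Epcam (0.078) and Arhgef16 (0.078). Akap5 was nearest to Sema3a (0.095) and then to Cdcp1 (0.0995). The nearest to Ager was Pttg1ip (0.050), to Hopx Gramd3 (0.061), to Pdpn Wdr61 (0.052) and to Rtkn2 Tmem30a (0.080). Krt19 had, after a gene without a symbol at 0.056, Arhgef19 at 0.061, Sfn had Ftl1 at 0.078, Itgb6 had Tc2n at 0.130, and Cldn4, the least abundant, had no gene closer than Tnfrsf26 at 0.178.

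Hopx, Rtkn2 and Krt8 each share exon sequence with a gene on the opposite strand (Hopxos, Gm16212 and Gm36026), which the lung counts do not list, and whether the libraries kept the strand is not stated, so reads of those genes could be counted with the 3.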

How the data were processed

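RNA of 12 whole lungs, 1 per mouse, was sequenced at BGI. Reads were pseudoaligned with kallisto and gathered by gene through tximport, and the expected counts (estimated counts) that the authors deposited are not normalized for depth. Versions are not given in the sources used here. The labels name mm10 while the supplementary methods name GRCm39, so gene symbols and positions were taken by Ensembl identifier from GENCODE M21 on GRCm38. A symbol was found for 35816 genes and not for 293. The retinas of the series were not used here.

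Counts were rounded and fitted in R 4.3.3 with edgeR 4.0.16, all 12 lungs together with 1 coefficient for each group, following filterByExpr and TMM, and tested by glmQLFTest (robust = TRUE) with Benjamini-Hochberg adjustment over 16819 genes. A gene rose or fell at an adjusted p under 0.1, and was called 2-fold if its unadjusted p was also under 0.05 and it differed at least 2-fold. The 5 comparisons were hyperoxia in each genotype, genotype in each exposure, and the interaction. The script was tested on simulated counts. Standard errors were obtained from each fold change and its F statistic. CPM per kb divides by the union of exons. The pan-epithelial scale replaces TMM by size factors from 10 epithelial genes.

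The 10 genes and the 19 other lists were chosen with earlier results of these data known, and no list was tested as a set. Of each list, genes named were at most 4 with the smallest p for hyperoxia in WT lungs, except where the text says otherwise and for 1 gene that is not reported here, and members that make up a count of 5 or fewer. Genes are also named by their nearness to a followed gene over 12 lungs. With 28763661 to 29604254 counts per lung, counting error is small except for Cldn4, and the spread between 3 mice sets the precision. Alternatives were RLE size factors, library totals alone, pan-epithelial size factors, no filter, DESeq2 1.42.0, limma 3.58.1 with voom, a fit of the 2 compared groups, terms for Y-linked expression and for the erythroid mean, and leaving out each lung.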

Additional observations from a re-analysis of the deposited data

How the results depend on the processing

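Cldn4, Sfn and Itgb6 rose in both genotypes under every alternative tried, and Ager fell under every alternative except the erythroid term in WT lungs (-0.27, adjusted p = 0.320). Scaling by pan-epithelial genes, with or without Krt18 and Elf3 (the latter added after seeing the data), left 1 of the 10 genes called 2-fold in WT lungs (from 3) and 1 in GSDMD-KO lungs (from 2), and raised the calls over all genes from 1952 to 3134 and 3076 in WT and from 1783 to 3104 and 3129 in GSDMD-KO lungs. It turned Krt19 to -0.093 and -0.082 in WT and -0.19 and -0.195 in GSDMD-KO lungs, Rtkn2 to -0.31 and -0.30 in WT and -0.43 and -0.43 in GSDMD-KO lungs, and Pdpn to -0.45 and -0.44 in WT and -0.49 and -0.49 in GSDMD-KO lungs. With the erythroid term 4 of the 10 genes passed in WT lungs (from 8), and Rtkn2 was at -0.26 in WT and -0.038 in GSDMD-KO and Pdpn at -0.10 and -0.024. Near 0, Pdpn also changed sign with the mesothelial term (added after seeing the data; -0.052 in WT and -0.062 in GSDMD-KO lungs) and with library totals alone in GSDMD-KO lungs (-0.034). Leaving out each lung gave -0.032 to 0.072 for Pdpn in WT, -0.036 to 0.052 for Pdpn in GSDMD-KO and -0.063 to 0.21 for Rtkn2 in GSDMD-KO lungs, where the negative value was that without KO-O2 replicate 3.

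Calls over all genes between genotypes were unstable, although 0 of the 10 genes passed under any alternative. In hyperoxia they went from 4 to 32 with DESeq2, 8 with only the 2 groups, 2 with the Y-linked term, 0 with the erythroid term, and 1 to 23 without single lungs (23 without KO-O2 replicate 3). In room air they went from 23 to 72 with DESeq2, 10 with only the 2 groups, 0 with the Y-linked term, and 1 to 109 without single lungs (109 without WT-RA replicate 3). For the interaction they went from 1 to 2 on the pan-epithelial scale, 2 with no filter, 109 with DESeq2, 0 with voom, 0 with the Y-linked term, 0 with the erythroid term, and 0 to 45 without single lungs (45 without WT-RA replicate 3). The cause was not tested. No paired analysis was possible because the labels give no replicate numbers shared between groups.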
